A study of Mus musculus with 20 samples.

Results

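Ribosome biogenesis genes were followed across 10 blood cell types of the mouse. The 34 genes were chosen by name, as factors that transcribe, modify, cut or assemble ribosomal RNA and its precursor particles, with no threshold on a measured level, although earlier results of these data were known when the list was made. Of these, 33 had a probe set of their own on the array, out of 18193 genes with one, and together they had 66 probe sets. Npm3 is not analysed here. Each gene was represented by its probe set with the highest mean. A gene was tested if at least 2 of the 20 arrays had a log2 value above 5, which 32 of the 33 genes did, within 9810 genes tested in all. Rrp9, a protein of the U3 snoRNP, did not pass, with at most 1.82 on any array.

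Gene expression was measured on Affymetrix Mouse430_2 arrays, with 2 arrays for each cell type. The types were long-term hematopoietic stem cells (LT-HSC, the cells at the top of the blood lineage), natural killer (NK) cells, naive CD4+ T cells, naive CD8+ T cells, activated T cells of both kinds (CD4+ and CD8+, by LPS according to the labels), B cells, monocytes, granulocytes and nucleated erythrocytes (red cell precursors that still hold a nucleus). All were wild-type C57Bl/6 females carrying CD45.1, aged 12 to 14 weeks, and only the activated T cells had a treatment. Each array held material pooled from 4 samples of between 25000 and 50000 cells sorted by flow cytometry, amplified by successive rounds of in vitro transcription, so a p-value measures the spread between pools and not between single mice. One of the naive CD8 arrays, the first, is titled CD48+, and its group follows the source name, which gives CD8+. In sorted cells of this kind, a lower level of an RNA and fewer cells that contain it cannot be told apart.

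A ribosome begins in the nucleolus, where RNA polymerase I transcribes a long precursor RNA. Small nucleolar RNA-protein particles (snoRNPs) of the box C/D and box H/ACA classes guide its methylation and pseudouridylation, and separate sets of factors fold, cut and assemble the small and large subunits. Demand for this work follows growth: a lymphocyte that leaves the resting state enlarges its nucleoli before it divides, and the transcription factor Myc, which binds the E-box CACGTG, is a known activator of many of these genes.

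Promoter sequences are shown first. RefSeq entries for GRCm38.p6 gave 31 windows of 300 bases (250 before and 50 after the annotated start) for 28 of the genes. Bop1, Fbl, Npm1, Rrp12 and Rrs1 had none. Nop2 carried the E-box CACGTG, the ETS motif CCGGAAG and the GC box GGGCGG, Ncl had 3 GC boxes, and Nop14 and Nop10 carried the core of the ZNF143 motif. Dkc1 held none of these within the bases printed. The E-box and the ETS motif were absent from most windows of these genes, and a link between motifs and levels was not tested. The 250 bases before the start are given 5′ to 3′ on the strand of the gene, with matches to these motifs on either strand in capitals:
Nop2, chr6:125131633-125131882, plus strand: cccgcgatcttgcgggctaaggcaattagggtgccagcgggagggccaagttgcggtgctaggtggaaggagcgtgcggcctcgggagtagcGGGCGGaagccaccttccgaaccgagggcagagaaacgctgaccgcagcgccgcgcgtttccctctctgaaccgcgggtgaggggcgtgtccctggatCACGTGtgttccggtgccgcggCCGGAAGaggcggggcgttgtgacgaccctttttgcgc
Ncl, chr1:86359456-86359705, minus strand: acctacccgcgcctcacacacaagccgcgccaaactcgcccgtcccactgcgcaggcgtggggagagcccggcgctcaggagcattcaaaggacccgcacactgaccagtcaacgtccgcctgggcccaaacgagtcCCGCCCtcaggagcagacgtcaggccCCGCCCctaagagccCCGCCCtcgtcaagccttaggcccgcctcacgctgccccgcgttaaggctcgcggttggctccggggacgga
Nop14, chr5:34660149-34660398, minus strand: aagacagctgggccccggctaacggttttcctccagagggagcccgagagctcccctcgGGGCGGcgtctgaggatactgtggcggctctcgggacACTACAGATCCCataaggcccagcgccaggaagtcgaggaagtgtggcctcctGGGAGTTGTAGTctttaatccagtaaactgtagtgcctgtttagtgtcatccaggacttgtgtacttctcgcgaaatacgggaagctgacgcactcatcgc
Nop10, chr2:112261676-112261925, plus strand: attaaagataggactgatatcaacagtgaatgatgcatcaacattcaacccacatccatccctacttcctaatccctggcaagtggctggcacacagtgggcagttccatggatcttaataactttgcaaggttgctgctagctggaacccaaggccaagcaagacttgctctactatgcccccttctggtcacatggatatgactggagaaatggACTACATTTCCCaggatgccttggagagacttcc
Dkc1, chrX:75095604-75095853, plus strand: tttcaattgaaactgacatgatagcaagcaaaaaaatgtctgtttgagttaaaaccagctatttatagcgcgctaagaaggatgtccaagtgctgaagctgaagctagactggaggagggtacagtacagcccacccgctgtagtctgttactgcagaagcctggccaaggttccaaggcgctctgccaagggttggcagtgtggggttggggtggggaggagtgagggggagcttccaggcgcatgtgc

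The E-box was present in 5 of the 31 windows (16.1%), against 7.8% of the windows of all protein-coding genes and 18.5% of those of the other listed biogenesis factors described below. These are the 5 sites with up to 10 bases on either side, clipped at the end of the window, E-box in capitals:
Nop2, chr6:125131813-125131838, plus strand: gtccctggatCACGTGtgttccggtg
Wdr43, chr17:71616222-71616247, plus strand: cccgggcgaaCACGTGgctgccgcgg
Pes1, chr11:3963967-3963992, plus strand: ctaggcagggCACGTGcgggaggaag
Utp20, chr10:88826765-88826787, minus strand: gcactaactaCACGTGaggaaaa
Mybbp1a, chr11:72441357-72441376, plus strand: cttctgagccCACGTGtttg

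Counted from the annotated start, the first base of the site lay at -60 in Nop2, and after the start, at 18, 3, 38 and 41, in Wdr43, Pes1, Utp20 and Mybbp1a. The GC box stood in 71.0% of the members' windows against 46.2% of coding ones. The ETS motif stood in 19.4% against 11.6%, with 46.7% among the other factors, and the CCAAT box in 38.7% against 38.2%. The YY1 motif AAGATGGC and the palindromic NRF1 motif were in none of the 31 windows, against 3.1% and 1.3% of coding ones. The core of the ZNF143 motif, which was noticed on reading the windows and added then, stood in 4 (12.9%: Nop10, Nop14, Nop16 and Polr1b) against 2.5% of coding windows and 1.5% of those of other biogenesis factors. Every motif was searched on both strands, and matches of the ETS motif and the GC box can overlap. The median GC content of the windows was 57.0% for the members and 56.3% for coding genes. A match describes letters in a window, and no binding was measured.

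Before the results, the arrays were set against their labels. All 7 measured T cell markers were above 5 on both arrays of each T cell type, as were all 6 NK markers, all 8 granulocyte markers, both CD8 markers, 5 of 6 B cell, 7 of 9 LT-HSC and 5 of 6 erythroid markers in their own types. Of 3 CD4 markers only Zbtb7b was above 5 in both CD4 types (5.46 to 5.83), and it was higher in monocytes (7.31 and 6.35). Cd4 itself lay between 3.32 and 4.35 on all arrays, so that this probe set does not show the CD4 identity. All 6 genes of T cell activation were above 5 in both activated types, against 3 of 6 in each naive T cell type and 4 of 6 in NK cells. Il2ra, the interleukin 2 receptor alpha chain, lay between 11.43 and 12.02 in activated cells and at most at 3.68 elsewhere. The proliferation gene Mki67 went the other way in CD4 T cells, at 12.67 and 11.20 in naive and 8.77 and 9.91 in activated cells. In CD8 T cells its arrays overlapped, at 12.56 and 11.23 in naive and 11.89 and 10.57 in activated cells. The monocyte arrays stood less clearly: 4 of 5 monocyte markers were above 5, against 5 of 5 in nucleated erythrocytes, and 7 of 8 granulocyte markers were above 5 in both monocytes and nucleated erythrocytes. Granulocytes also had 4 of 5 monocyte markers above 5, with a list mean of 7.71 to 8.40 against 7.18 to 8.13 in monocytes, and 3 of 6 erythroid markers, with Slc4a1 at 13.29 and 11.89 and Alas2 at 11.49 and 10.02. Monocyte replicates had the lowest correlation over all probe sets, 0.945, against up to 0.988 in B cells. The Y-linked genes Eif2s3y and Kdm5d were at 7.71 or above on the 4 activated arrays and on the first array of each naive T cell type, and at 3.45 or below on the other 14 arrays, although the labels give all mice as female. The signal of the 5′ control probe set of Gapdh lay between 7.42 and 8.81 in activated T cells and at 8.23 and 8.26 in granulocytes, but between 3.89 and 4.45 in naive T cells and at most 6.00 in the remaining arrays. The part of these differences in the results below was not tested, beyond leaving out arrays where stated.

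The mean over the 32 genes was 11.51 and 11.41 on the 2 arrays of activated CD4 T cells and 11.64 and 11.83 on those of activated CD8 T cells. No array of another type exceeded 9.57. Naive CD8 T cells (9.57 and 9.36), B cells (9.21 on both), LT-HSC (9.05 and 8.73), naive CD4 T cells (8.87 and 8.91) and NK cells (8.44 and 8.29) formed a middle range. Nucleated erythrocytes (7.49 and 6.93), granulocytes (6.78 and 6.50) and monocytes (5.68 and 6.24) were lowest. Gene by gene, activated CD8 T cells were the highest type for 26 genes and activated CD4 T cells for the other 6, while monocytes were lowest for 20, granulocytes for 7, nucleated erythrocytes for 4 and NK cells for 1.

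**Figure D1:**
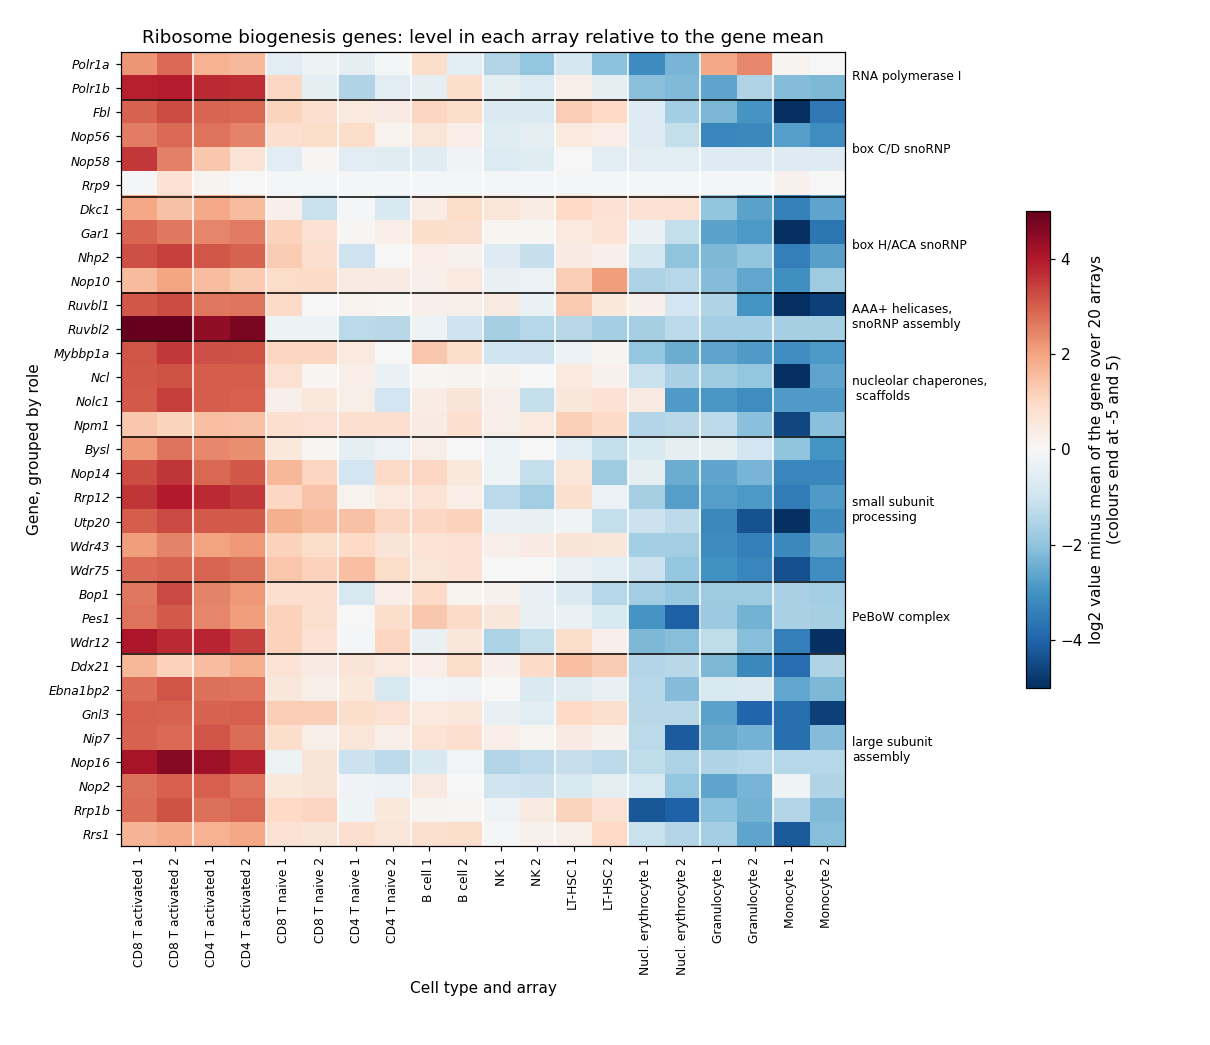
Level of each of the 33 measured genes on each of the 20 arrays, as the log2 value minus the mean of that gene over all arrays, with genes grouped by role and the colour scale ending at -5 and 5. The 4 activated T cell columns are high for nearly every gene, the erythrocyte, granulocyte and monocyte columns are low, Polr1a is also high in granulocytes, and Rrp9 is flat because it was at most 1.82 on every array.

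Most of the genes were higher in activated than in naive T cells. In CD4 T cells, 29 of the 32 genes rose (adjusted p under 0.05 in limma with Benjamini-Hochberg adjustment over 9810 genes, and a log2 difference of at least 1) and 0 fell, where 14.9% of all genes tested rose and 18.2% fell. Every one of the 32 had both activated arrays above both naive arrays, as did 39.3% of all genes tested, while 35.1% had both below. Their median log2 difference was 2.51, with a range of 0.64 to 5.93, against 0.02 over all genes. In CD8 T cells, 26 rose and 0 fell (14.4% and 15.7% of all genes), and at an unadjusted p under 0.05 the counts were 30 in CD4 and 29 in CD8 T cells, with 0 lower in either (20.6% of all genes were higher at that p in each, and 24.6% and 22.0% lower). The CD8 arrays again did not overlap for any of the 32, as for 32.8% of all genes (38.4% lay below), and the median was 2.12 against -0.02. Not called were Npm1, Ddx21 and Rrs1 in both, and Nop10, Nop14 and Utp20 in CD8 T cells. Of the genes, 3 passed the filter mainly through activated arrays: Nop58 (2 arrays above 5, both activated CD8), Ruvbl2 (4 arrays, all activated) and Nop16 (5 arrays, 4 of them activated). Without these 3, 26 of 29 rose in CD4 and 23 of 29 in CD8 T cells, with medians of 2.50 and 2.11. With no filter on level, 27 of the 33 measured genes rose in CD4 and 25 in CD8 T cells. Of all 18193 genes, 1285 and 1257 rose in that setting. Comparing only with the naive arrays numbered 1, which share the Y-linked signal of the activated arrays, left 23 genes called in CD4 and 24 in CD8 T cells. Comparing only with the arrays numbered 2 left 23 in each.

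Markers of other cell types differed between the naive and activated arrays as well. Of 5 monocyte markers, 3 exceeded 5 in naive CD4 T cells and 1 after activation, and for CD8 T cells the counts were 2 and 0, with list means of 6.33 to 6.97 and 5.98 in naive against 3.69 to 3.97 and 3.98 to 4.59 in activated cells. Csf1r, the receptor of a monocyte growth factor, was at 9.44 and 10.21 on the naive CD4 arrays, at 8.64 and 7.91 on the naive CD8 arrays, and at most at 4.63 on activated ones. Ly86 was at 8.81 and 10.21 and at 8.41 and 9.09 in the naive types, and at most at 5.55 after activation. Ly86 was higher in B cells (13.42 and 13.56) than in monocytes (8.43 and 10.58). The other monocyte markers did not drop in this way. Ccr2 lay between 4.79 and 5.6 in naive and between 4.81 and 5.3 in activated T cells. F13a1 lay between 2.89 and 3.87 in naive and between 3.02 and 3.17 in activated T cells. Cx3cr1 was at most at 4.97 in naive and at least at 4.96 in activated T cells. The second naive CD4 array also had S100a8 at 10.75 and S100a9 at 10.68, while 0 of 8 granulocyte markers were above 5 on both arrays of any T cell type. Of 6 B cell markers, 3 exceeded 5 on both arrays of naive CD8 and 0 of activated CD8 T cells. In CD4 T cells the count was 2 in both states. The B cell marker Ms4a1 was at 8.32 and 7.16 in naive and 6.54 and 6.12 in activated CD4 T cells. In CD8 T cells Ms4a1 was at 8.58 and 8.07 in naive and 6.76 and 4.34 in activated cells. The part of these markers in the differences was not tested.

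**Figure D2:**
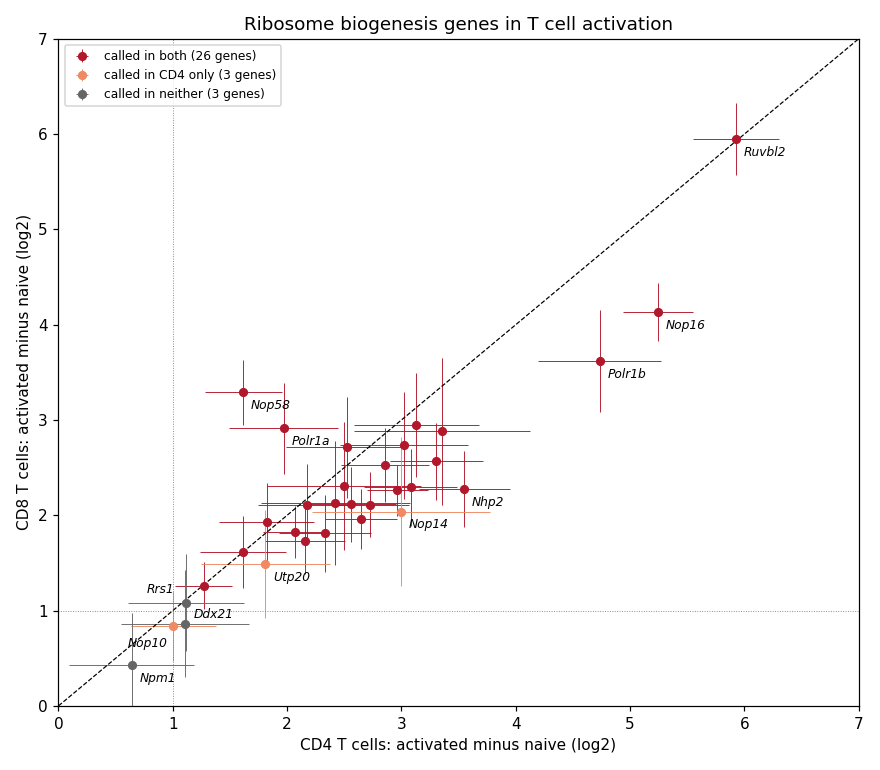
Log2 difference between activated and naive cells for each of the 32 genes tested, CD4 T cells on the horizontal and CD8 T cells on the vertical axis, with standard errors from the fit as bars, the dashed line marking equal differences and the dotted lines a difference of 1. All 32 genes lie above 0 on both axes. Ruvbl2, at 5.93 and 5.95, and Nop58, farthest above the line of equal differences, passed the filter through activated arrays alone.

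The RNA polymerase I subunits came first in the order of the work. Polr1b, the second largest subunit (chromosome 2, 129100970 to 129128060 in GRCm38.p6), was at 4.44 and 5.38 in naive CD4 and at 9.67 and 9.62 in activated CD4 T cells, and at 6.96 and 5.45 against 9.80 and 9.85 in CD8 T cells. It rose by 4.74 (SE 0.54, adjusted p = 2.53e-05) and by 3.62 (SE 0.54, adjusted p = 2.41e-04). Polr1a, the largest, catalytic subunit, went from 7.11 and 7.52 to 9.36 and 9.21 in CD4 T cells, a difference of 1.97 (SE 0.48), and from 7.09 and 7.33 to 9.81 and 10.44 in CD8 T cells, a difference of 2.92 (SE 0.48), both called. A second probe set of Polr1a, above 5 on all 20 arrays, gave -0.29 and 0.07 for these differences, so that the probe sets of this gene disagree.

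Of the box C/D snoRNP proteins, which carry out 2′-O-methylation, all 3 tested rose in both T cell types. Fbl (fibrillarin, the methyltransferase itself) was at 10.49 and 10.42 in naive and 12.90 and 12.85 in activated CD4 T cells, and at 11.11 and 10.84 against 12.93 and 13.27 in CD8 T cells. Nop56, a core scaffold protein, rose by 2.06 and 1.83. Its partner Nop58 was under 5 on all arrays except those of activated CD8 T cells, at 6.54 and 5.54. Activated CD4 T cells had 4.35 and 3.72, and both naive types between 2.40 and 3.06. Its fitted log2 differences were 1.62 in CD4, where every array was under the filter, and 3.29 in CD8 T cells (SE 0.34).

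All 4 proteins of the box H/ACA snoRNPs, which make pseudouridine, rose in CD4 T cells, and 3 of 4 in CD8 T cells. Nhp2, a core protein, went from 8.98 and 10.00 to 13.13 and 12.95 in CD4 T cells, by 3.55 (SE 0.40, adjusted p = 2.32e-05), and from 11.30 and 10.85 to 13.25 and 13.45 in CD8 T cells, by 2.28. Gar1 rose by 2.33 and 1.81. Dkc1 (dyskerin, the pseudouridine synthase) rose by 2.17 and 2.11. Nop10, the smallest of the 4, lay just over the limit in CD4 T cells, from 11.73 and 11.69 to 12.83 and 12.60 (1.00, SE 0.37, adjusted p = 0.0475), a call lost in most fits that left out 1 array, and was not called in CD8 T cells (0.84, SE 0.37, adjusted p = 0.0992).

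The AAA+ helicases Ruvbl1 and Ruvbl2, which act together as a chaperone in snoRNP assembly and in chromatin remodelling, both rose. Ruvbl2 (chromosome 7, 45421896 to 45436171) passed the filter through activated arrays alone. It was at 2.17 and 2.15 in naive CD4, 3.28 and 3.26 in naive CD8, 7.95 and 8.23 in activated CD4 and 8.50 and 9.94 in activated CD8 T cells, with at most 3.27 in any further type. The fitted differences of 5.93 and 5.95 were taken against values under the filter, and the activated means lay 3.09 and 4.22 above the filter level of 5. Ruvbl1, detected in both states, rose by 2.52 and 2.71.

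Among the nucleolar chaperones and scaffolds, Ncl (nucleolin, the abundant RNA-binding protein of the nucleolus) was at 10.73 and 10.04 in naive and 13.40 and 13.41 in activated CD4 T cells, and at 11.13 and 10.47 against 13.50 and 13.57 in CD8 T cells. Nolc1, which associates with snoRNPs and polymerase I, rose by 3.36 (SE 0.77) and 2.88 (SE 0.77), and Mybbp1a, a nucleolar protein that binds Myb, by 2.96 (SE 0.27) and 2.26 (SE 0.27). Npm1 (nucleophosmin) was the exception: it was between 14.50 and 14.59 in all 4 naive arrays and between 14.84 and 15.24 in activated ones, with differences of 0.64 and 0.43 (SE 0.55) that were not called. The highest value on any array was 16.85. A second probe set of Npm1 gave differences of 2.24 and 2.25.

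The small subunit processing factors all rose in CD4 T cells. Rrp12, an export factor, went from 6.82 and 7.13 to 10.39 and 10.17, by 3.30 (SE 0.41), and in CD8 T cells from 7.67 and 8.06 to 10.23 and 10.63, by 2.56 (SE 0.41). Bysl rose by 2.73 and 2.11, Wdr75 by 1.62 in both and Wdr43 by 1.27 and 1.26. The U3-associated scaffold protein Utp20 (1.81, then 1.49) and Nop14 (3.0, then 2.04) were called in CD4 T cells and missed the threshold in CD8 T cells, with adjusted p-values of 0.0576 and 0.0594. Nop14 is the gene whose promoter held a pair of ZNF143 motifs. Its naive CD4 arrays, at 5.98 and 7.91, differed from each other more than those of most genes, and the SE of its difference was 0.78.

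The PeBoW complex, made of Pes1, Bop1 and Wdr12 and needed for the cut that frees the large subunit RNAs, rose in full in both T cell types. Wdr12 went from 7.66 and 8.85 to 11.58 and 11.19 in CD4 T cells and from 8.92 and 8.49 to 11.80 and 11.51 in CD8 T cells, with differences of 3.13 and 2.95 (SE 0.55). Bop1 rose by 2.56 and 2.12 and Pes1 by 1.82 and 1.92.

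Among the large subunit factors, Nop16 (chromosome 13, 54584191 to 54590097), a nucleolar protein of the large subunit precursor, was at 3.72 and 3.46 in naive CD4 T cells and 4.52 and 5.44 in naive CD8 T cells. Activated CD4 T cells had 9.02 and 8.65 and activated CD8 T cells 8.91 and 9.32. The fitted differences were 5.24 and 4.14 (SE 0.31), again mostly against values under the filter, and the activated means lay 3.84 and 4.12 above 5. Nop2, an rRNA methyltransferase, rose by 3.08 and 2.29. Ebna1bp2 rose by 2.86 and 2.53, Rrp1b by 2.64 and 1.96, Nip7 by 2.50 and 2.30 and Gnl3 (nucleostemin) by 2.16 and 1.73. The RNA helicase Ddx21 (1.10 and 0.86, SE 0.56) and the assembly factor Rrs1 (1.12 and 1.08, SE 0.51) were not called.

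The genes with the smallest differences had other probe sets that differed more. Second probe sets of Ddx21, Rrs1 and Nop10 gave differences of 2.88 and 3.0, 2.45 and 2.45, and 1.87 and 1.41 in CD4 and CD8 T cells. Of 33 probe sets of these genes that were not used for the main values, 24 passed the same filter, and 17 of them differed by at least 1 in both T cell types. Apart from Polr1a, the probe sets with a difference under 0 were one of Ebna1bp2 (0.65 and -0.35) and one of Nip7 (0.99 and -0.47). Others were positive but smaller than the one used: for Ncl, with 3.02 and 2.73, further probe sets gave 0.47 and 0.17, and 0.88 and 0.86, and one of Dkc1 gave 0.23 in CD4 and 2.70 in CD8 T cells. When each gene was represented by its most variable probe set, all 32 genes were called in CD4 and 30 in CD8 T cells.

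The CD4 and CD8 responses were also compared with each other. None of the 32 genes passed limma's test of the difference between responses (smallest adjusted p 0.229, for Nop58 with 1.68 more in CD8 T cells), where 0.326% of all genes had a larger and 0.336% a smaller response in CD8 T cells. At an unadjusted p under 0.05 there were 3 (6.2% of all genes), with Nop58 larger and Nhp2 (-1.27, SE 0.56) and Nop16 (-1.11, SE 0.43) smaller in CD8 T cells. In 26 of the 32 the CD8 response was numerically the smaller, with a median difference of -0.29 against 0.005 over all genes. The level was not: activated CD8 T cells were numerically above activated CD4 T cells for 27 of the 32. The median of CD4 minus CD8 was -0.19 there, against -0.11 over all genes. The mean over the 32 genes was also higher in naive CD8 (9.57 and 9.36) than in naive CD4 T cells (8.87 and 8.91). Between the activated types themselves 1 gene was called, Nop58, lower by 2.00 (SE 0.34, adjusted p = 0.00696) in CD4 than in CD8 T cells, where 1.16% of all genes were lower and 0.285% higher. Nop58 entered the test through the activated CD8 arrays, and its activated CD4 values were under the filter, so the size of this difference is not read. That call was lost without the second activated CD4 array, and without either activated CD8 array Nop58 failed the filter on level.

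Each activated T cell type was then compared with each of the 8 other types, 16 pairs in all, and a gene was called if its smallest difference was at least 1 and its largest one-sided p-value passed after adjustment. This held for 19 of the 32 genes, against 3.3% of all genes tested. Ruvbl2, Nop16 and Nop58, which passed the filter through activated arrays, were among the 19, and 16 of the 29 others were called. All 4 activated arrays exceeded all 16 others for 28 genes, and for 12% of all genes, while 4.15% of all genes were below on all 4. The 28 also include Ruvbl2, Nop16 and Nop58, for which passing the filter through activated arrays favours this order. Apart from those 3, the margins were widest for Polr1b (3.44, SE 0.54, over naive CD8 T cells), Wdr12 (2.68) and Ncl (2.60). The count fell to 10 without the first activated CD4 array, to 12 without the second naive CD8 array, and to 12 or 10 without the naive arrays numbered 1 or 2. The exceptions in array order were Polr1a, which granulocytes matched at 9.52 and 10.02, and Nop10, Npm1 and Ddx21, which LT-HSC matched on the probe sets used.

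**Figure D3:**
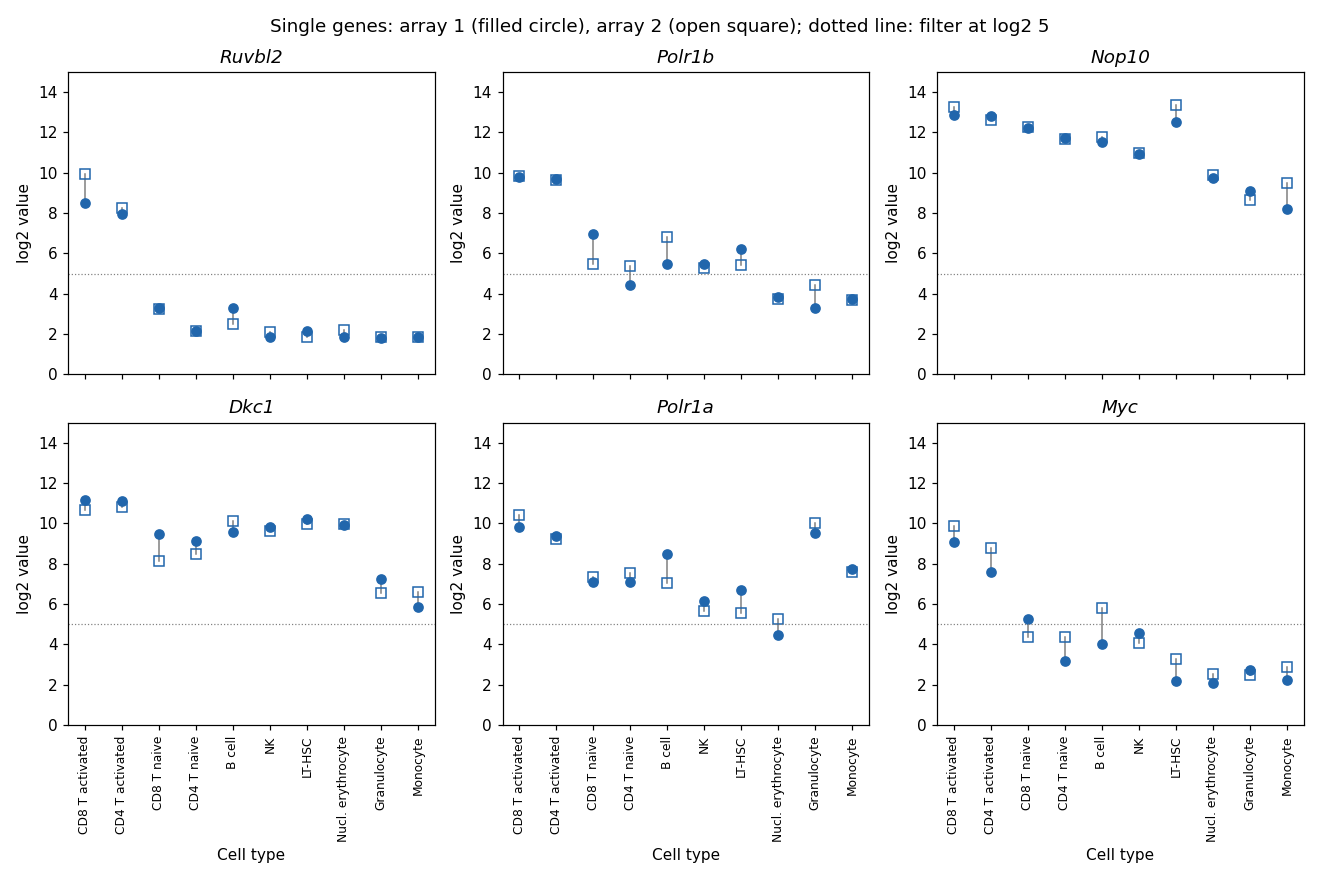
Log2 value of 5 ribosome biogenesis genes and of Myc on both arrays of each cell type (filled circle, first array, open square, second array), with the dotted line at the filter of 5. Ruvbl2 exceeds 5 in activated T cells alone, Polr1b is highest there, Nop10 in LT-HSC reaches the level of activated T cells, Dkc1 in nucleated erythrocytes lies above both naive T cell types, Polr1a is high in granulocytes, and Myc exceeds 5.80 in activated T cells alone.

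LT-HSC differed from naive T cells in few of these genes. Against the mean of both naive T cell types, 1 gene was higher in LT-HSC and 5 were lower, where 17.1% and 24.7% of all genes were, and the median difference was -0.18 against -0.20 over all genes. The lower ones were Utp20 (-2.13), Wdr75 (-1.68), Bop1 (-1.38), Pes1 (-1.25) and Polr1a (-1.13). Dkc1 was the higher one: it was at 10.23 and 9.96 in LT-HSC and between 8.12 and 9.49 in naive T cells, a difference of 1.30 (SE 0.37, adjusted p = 0.0102). With the most variable probe set of Dkc1 in its place the sign turned, to -0.90, and leaving out the first LT-HSC or the second naive CD8 array also ended the call. Without the second LT-HSC array 1 gene was lower.

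In LT-HSC, Nop10 and Ddx21 were near the levels of the activated T cells on the probe sets used. Nop10 was at 12.52 and 13.38 in LT-HSC, against 12.60 to 13.26 in the activated T cells, and the difference between activated T cells and LT-HSC was -0.06 (SE 0.32). Ddx21 was at 12.51 and 12.28 in LT-HSC against 12.16 to 12.80 in activated T cells, a difference of 0.15 (SE 0.49). Activated T cells exceeded LT-HSC for 28 of the 32 genes, where 27.5% of all genes did so. Besides these, Npm1 (0.29, SE 0.47) and Dkc1 (0.85, SE 0.37) were not called. The likeness depended on the probe set. Further probe sets of Ddx21, Npm1 and Dkc1 were at 8.61 and 8.85, 10.83 and 10.43, and 7.52 and 7.26 in LT-HSC. Activated T cells had 10.69 to 11.64, 12.13 to 12.51 and 11.02 to 11.41 on these. The second probe set of Nop10 kept it, at 10.79 and 11.23 against 10.91 to 11.33. With the most variable probe sets, 31 genes were called.

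Nucleated erythrocytes were low in most of the genes. Against naive T cells, 25 were lower and 1 was higher, where 37.3% of all genes were lower and 18.2% higher, and the median difference was -1.99 against -0.42 over all genes. Rrp1b was at 4.10 and 4.29, below every other array, and 4.75 (SE 0.27, adjusted p = 5.36e-09) under naive T cells. Pes1, at 5.75 and 4.63, differed by -4.22, and Nip7, at 7.27 and 4.46, by -3.29 (SE 0.58). Rrp12, Wdr12 and Mybbp1a followed with -2.96, -2.88 and -2.87.

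On the probe set used, Dkc1 again went the other way in nucleated erythrocytes, at 9.94 and 9.99, and was 1.16 (SE 0.37, adjusted p = 0.0139 in limma) above naive T cells. Leaving out either erythrocyte array or the second naive CD8 array ended that call, as did taking the most variable probe set. A further probe set of Dkc1 was at 8.88 and 8.77 in nucleated erythrocytes and at 7.28 to 8.75 in naive T cells. Against LT-HSC, 21 of the 32 genes were lower in nucleated erythrocytes and 0 were higher, where 32.3% of all genes were lower and 20.3% higher. Rrp1b (5.08), Nop10 (3.14), Nip7 (3.08), Pes1 (2.96), Ddx21 (2.82) and Wdr12 (2.74) were farthest above in LT-HSC. Activated T cells exceeded nucleated erythrocytes for 31 of the 32, where 37.4% of all genes did so, with Dkc1 at 0.98 the one not called. The further probe set of Dkc1 was at 11.02 to 11.41 in activated T cells, and with the most variable probe sets all 32 genes were called.

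A list of 25 measured genes of DNA replication and mitosis was highest in these cells. Its mean was 12.74 and 12.47 in nucleated erythrocytes, and between 8.09 and 9.57 in activated T cells. Against naive T cells, 24 of the 25 were higher in nucleated erythrocytes, while 25 of the 32 biogenesis genes were lower. Of all genes, 18.2% were higher and 37.3% lower there. In T cell activation, 7 of the 25 rose and 2 fell in CD4, and 10 rose and 1 fell in CD8 T cells. The shares of all genes were 14.9% and 18.2% in CD4, and 14.4% and 15.7% in CD8 T cells. The granulocyte markers named above were high in the erythrocyte arrays, with means of 10.40 and 11.68, and their part in these levels was not tested.

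Granulocytes and monocytes were the lowest types. In granulocytes, 28 of the 32 genes lay under the mean of the 9 other types and 1 lay above it, where 26.4% of all genes were lower and 21.2% higher. Utp20, at 5.91 and 4.79, differed by -4.21 (SE 0.42), Gnl3 by -3.69, Wdr43 by -3.65, Nop56 by -3.60, Wdr75 by -3.50 and Nolc1 by -3.33. Polr1a alone was higher, by 2.41 (SE 0.36, adjusted p = 5.74e-05). The second probe set of Polr1a, which did not differ in this way in T cells, was also highest in granulocytes, at 7.92 and 7.88 against 5.57 to 7.36 on the other arrays. With the mean of its 5 probe sets, of which 3 were under 5 on every array, the difference was 0.80, under the limit of 1. The erythroid and monocyte markers in the granulocyte arrays are given above, and their part in these levels was not tested.

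Between monocytes and granulocytes, 9 genes were lower and 1 was higher in monocytes, where 17.3% and 6.98% of all genes were. Ruvbl1 was at 3.15 and 4.01 in monocytes and 7.17 and 5.66 in granulocytes (-2.84, SE 0.53). Wdr12 (-2.59), Fbl (-2.44), Polr1a (-2.10), Ncl (-2.02) and Bysl (-1.76) followed. Nop2 was the higher one, at 7.65 and 6.35 against 5.20 and 5.53 (1.64, SE 0.40). The monocyte arrays differed widely from each other for several genes, Fbl being at 3.48 and 6.40, Ncl at 5.25 and 7.74 and Npm1 at 9.19 and 11.66. In a limma fit to these 4 arrays alone, 0 of the 32 genes were called in either direction. Of all 9810 genes tested, 102 were higher and 309 lower in monocytes in that fit. The smallest adjusted p among the 32 was 0.0529, and 6 were lower at an unadjusted p under 0.05. Without the first granulocyte array 5 were lower and 0 higher, and without the first monocyte array 6 were lower and 0 higher.

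NK cells and B cells were compared with naive T cells as the other lymphocyte types without a treatment. In NK cells 11 of the 32 genes were lower and 0 were higher in limma's test, where 8.95% of all genes were lower and 8.35% higher. Rrp12 was at 5.32 and 4.92 in NK cells against 6.82 to 8.06 in naive T cells (-2.30, SE 0.35, adjusted p = 3.35e-04), and Wdr12 (-2.09), Utp20 (-1.81), Mybbp1a (-1.69), Gnl3 (-1.50) and Polr1a (-1.36) came next. At an unadjusted p under 0.05, 15 were lower and 1 was higher, where 16.5% and 15.4% of all genes were. Without the first or the second NK array the count fell to 4 or 5. In B cells limma called none of the 32 in either direction (8.27% and 7.77% of all genes were called), and 1 had an unadjusted p under 0.05 (28.6% of all genes did), Dkc1 with 1.06 (SE 0.37, adjusted p = 0.066).

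Other factors of the pathway were counted from a separate list of 150 genes that shared none with the 34, of which 144 had a probe set and 140 were tested. In CD4 T cells 83 of them rose and 0 fell, with a median difference of 1.44, and in CD8 T cells 78 rose and 0 fell, with a median of 1.23. Of all genes tested, 14.9% rose and 18.2% fell in CD4, and 14.4% and 15.7% in CD8 T cells. At an unadjusted p under 0.05 limma gave 107 and 99 higher and 0 lower in either. At that p, 20.6% of all genes were higher in each, and 24.6% and 22.0% lower. By role, the CD4 and CD8 counts were 31 and 32 of 49 for the small subunit, 34 and 31 of 53 for the large subunit, 7 and 6 of 16 for polymerase I transcription, 5 and 4 of 8 for snoRNP assembly, and 6 and 5 of 14 for the exosome and RNA trimming. The helicase Dhx37 rose most, by 5.36 and 5.51, and Tbl3, a U3 protein, by 3.40 and 3.78. In the large subunit list Rrp15 rose by 3.48 in CD4 and Ddx56 by 3.74 in CD8 T cells. Shq1 and Naf1, chaperones of H/ACA assembly, rose by 2.78 and 3.04 in CD4 and by 2.61 and 2.40 in CD8 T cells. Rrn3, the initiation factor of polymerase I, rose by 2.10 and 1.50.

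Few genes of the ribosomal proteins themselves, the parts of the finished ribosome, were called in T cell activation. Of 78 cytoplasmic ribosomal protein genes 43 had a probe set of their own and 41 were tested. In CD4 T cells 1 of these rose and 0 fell, and in CD8 T cells limma called 0 in either direction, with medians of -0.07 and -0.22. The shares of all genes were 14.9% and 18.2% in CD4, and 14.4% and 15.7% in CD8 T cells. At an unadjusted p under 0.05, 5 were higher and 1 lower in CD4, and 1 higher and 3 lower in CD8 T cells. At that p, 20.6% of all genes were higher in each, and 24.6% and 22.0% lower. Their mean level was 13.92 and 14.13 in naive CD4, 14.13 and 14.07 in activated CD4, 14.35 and 14.37 in naive CD8 and 14.09 and 14.27 in activated CD8 T cells. In nucleated erythrocytes 27 of the 41 were under naive T cells and 0 above, where 37.3% and 18.2% of all genes were. In granulocytes 30 of 41 lay lower than the mean over the other types, where 26.4% of all genes did.

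**Figure D4:**
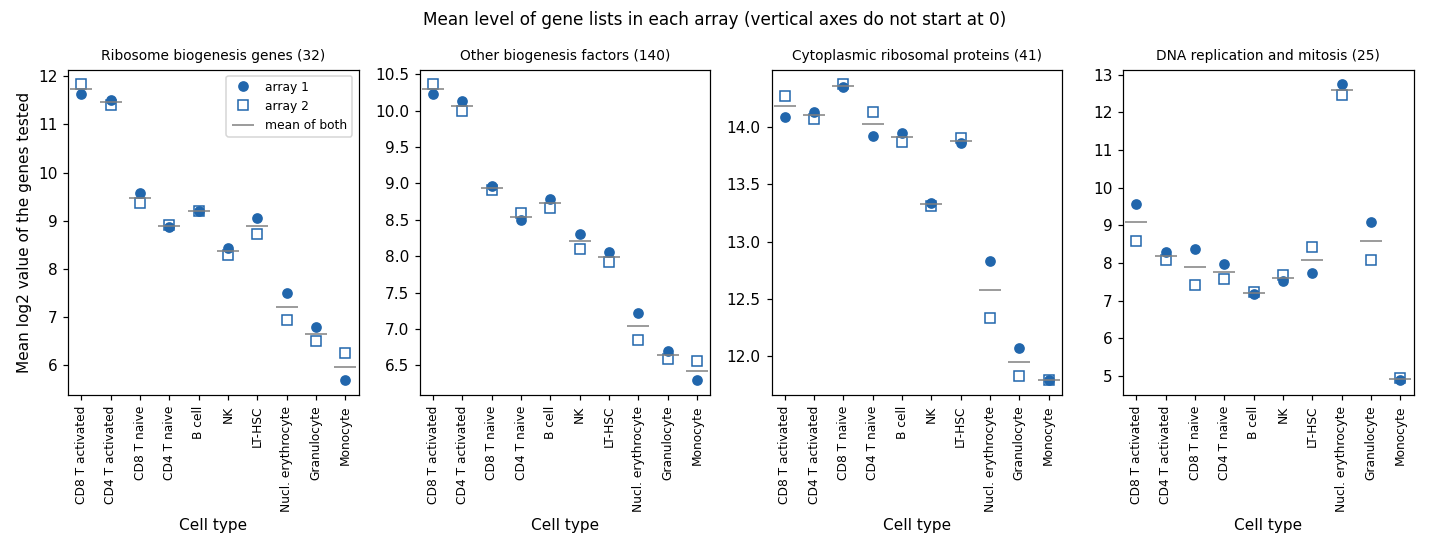
Mean log2 value over the genes of 4 lists on both arrays of each cell type (filled circle, first array, open square, second array, dash, their mean), with a vertical axis of its own for each list that does not start at 0. The members and the other biogenesis factors are highest in activated T cells and lowest in monocytes, the ribosomal proteins lie between 13.31 and 14.37 in all lymphocytes and LT-HSC, and the replication and mitosis genes peak in nucleated erythrocytes.

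Myc and genes of its network were measured as well, though Max, Mycl and Mycn did not pass the filter. The probe set of Max, the partner of Myc, lay between 2.57 and 3.47 on all arrays. Myc was at 3.20 and 4.37 in naive CD4, 7.61 and 8.77 in activated CD4, 5.28 and 4.39 in naive CD8 and 9.07 and 9.87 in activated CD8 T cells, with at most 5.80 in any further type. It rose by 4.40 (SE 0.62, adjusted p = 1.24e-04) and 4.63 (SE 0.62, adjusted p = 1.11e-04). Mxd4, an antagonist of Myc that shares its partner Max, fell by 6.00 and 5.53 (SE 0.47). The antagonists Mxd1 and Mxi1 exceeded the mean of the other types by 5.96 and 3.81 in granulocytes, and were 6.37 and 5.47 higher in nucleated erythrocytes than in naive T cells. Mxd4 and Mnt went the other way in nucleated erythrocytes. Mxd4 was at 6.32 and 6.87 there against 10.75 to 11.06 in naive T cells, and Mnt at 8.13 and 7.96 against 9.08 to 9.29. Over all 9 tested genes of this network, 1 rose and 3 fell in each T cell type. Of all genes tested, 14.9% rose and 18.2% fell in CD4, and 14.4% and 15.7% in CD8 T cells. In nucleated erythrocytes 3 were higher and 6 lower than in naive T cells, where 18.2% and 37.3% of all genes were. Against the mean of the other types, granulocytes had 4 higher and 2 lower, where 21.2% and 26.4% of all genes were.

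The profiles were then compared with each other, as a description over 20 arrays that share cell types. The correlation (Pearson's r) of each gene with the mean of the other members lay between 0.363 (Polr1a) and 0.983 (Mybbp1a), with a median of 0.9365. Over the 16 arrays without activated T cells the range was -0.236 (again Polr1a) to 0.968 and the median 0.8935. Among genes outside all lists, the 10 profiles most like the members' mean were those of Atad3a, Mrps10, Naa20, Timm9, Lyar, Nme1, Chchd1, Grwd1, Ndufaf4 and Hspd1, with r from 0.971 to 0.981. Among listed factors, Rrp15 (0.987), Noc4l (0.979) and Heatr1 (0.974) were closest, and 18 of the 100 closest of 9778 genes were listed biogenesis factors. Myc had an r of 0.888.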

How the data were processed

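Per the submitters' processing notes, the authors used GCRMA, and the deposited table holds log2 values of 45101 probe sets on 20 arrays. GCRMA corrects background by probe sequence, normalizes between arrays and summarises probes. Its version is not given in the sources used here. No scaling was added. The number of arrays limits the precision.

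Names came from the platform annotation: 34945 probe sets had 1 gene symbol, 932 had several and were left out, and 9160 were not listed. A gene took its probe set with the highest mean and was tested if at least 2 arrays exceeded 5, which kept 9810 of 18193 genes. limma 3.58.1 (lmFit, eBayes; R 4.3.3) fitted 1 mean for each type over every array, leaving 10 residual degrees of freedom. A call needed a Benjamini-Hochberg adjusted p under 0.05 over all genes tested and a log2 difference of at least 1. For the difference between responses the adjusted p sufficed. The script was tested on simulated data.

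The members and lists were chosen with earlier results of these data known. Named are, per comparison, up to 6 called members with the largest difference, members against the majority, members not called where 6 or fewer, members whose probe sets disagree, up to 3 called genes per further list, and the 10 genes outside the lists most like the members' mean. Gene positions and promoters are RefSeq's for GRCm38.p6. Deviations of same-numbered arrays from their type means correlated between -0.26 and 0.21 over 45 pairs of types (9 above 0.1), so numbers were not taken to pair samples. Within the T cells, however, Y-linked genes split both naive types by array number, and Xist split both activated types. A pairing among the T cell arrays alone was not tested. Alternatives changed the filter, the probe set chosen, scaling, array weights, variance trend, arrays fitted and replicate block, or left out arrays. Leaving out both monocyte arrays was chosen after seeing the data.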

Additional observations from a re-analysis of the deposited data

How the results depend on the processing

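Recomputed under every alternative, called member differences kept direction and call 7395 times, kept direction without the call 320 times and reversed 1 time: Dkc1 in LT-HSC against naive T cells was -0.90 with the most variable probe set. The cause was not tested. Counts in T cell activation stayed within 1.5 times of the main ones, from 22 to 32 genes higher and 0 lower. A replicate block gave 29 genes higher in CD4, 26 in CD8 and 18 above each other type, and moved none of the member counts by over 1.5 times. Quantile normalization moved the median of all genes by over 0.1 in 5 comparisons (by up to 0.193, in nucleated erythrocytes against naive T cells) and moved no member count by over 1.5 times.

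Other counts did move. LT-HSC against naive T cells had 2 higher and 8 lower with no limit on the difference, and 2 lower with the mean of probe sets. It had 0 higher with only the groups compared or without the naive arrays numbered 2. Leaving out single arrays gave 0 to 1 higher and 1 to 7 lower. LT-HSC against nucleated erythrocytes had 2 lower with the most variable probe set. Nucleated erythrocytes against naive T cells had 0 higher with the mean of probe sets, the most variable probe set, array weights, only the groups compared and without the naive arrays numbered 2, and 0 to 1 without single arrays. Activated CD4 against CD8 T cells had 0 lower with the stricter filter (which removes Nop58) and with only the groups compared, and 0 to 1 without single arrays. NK cells against naive T cells had 1 higher and 7 lower without the naive arrays numbered 1, 6 lower without those numbered 2, and 0 to 1 higher and 4 to 12 lower without single arrays. B cells had 1 higher with array weights or without the naive arrays numbered 1, and 0 to 1 without single arrays. Monocytes against granulocytes had 5 lower with the mean of probe sets, 0 in both directions with only the groups compared, and 0 to 1 higher and 5 to 12 lower without single arrays. Granulocytes had 0 higher with the mean of probe sets. Activated T cells above each other type numbered 12 and 10 without the naive arrays numbered 1 and 2, and 10 to 21 without single arrays. Where 1 array was left, it was assumed to vary like the other types.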
